A study of Homo sapiens with 9 samples.

Results

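The transcripts of 45 genes of the Wnt pathway, its components and its targets, were examined in HCT116, a human colon carcinoma cell line. The members were taken by gene symbol from a list chosen with earlier results of these data known. Every one of the 45 symbols was found among the 58735 genes of the table. They comprised 9 genes of the beta-catenin destruction complex, 9 TCF factors and coregulators, 13 receptors and Dishevelled genes, 8 feedback and secreted inhibitors and 6 targets. RNA-sequencing had been performed on 9 libraries in 3 groups of 3: A20-WT (WT), A20-KO (KO) and A20-OE (OE). A20, the product of TNFAIP3, is a ubiquitin-editing enzyme that restrains inflammatory signaling. In the study's methods the KO cells carry a guide RNA against A20 delivered with the LentiCRISPR v2 lentiviral vector, and the cells labelled OE are knockout cells given A20 back. The methods name pCMV-3xFlag-A20 as an A20 expression vector and do not say whether the sequenced OE cells were made with it. All groups were the same line, with no treatment given in the labels. The methods describe puromycin selection of infected cells, and no library is labelled as a vector control. Effects of vector and selection therefore cannot be told apart from those of A20 in the comparisons with WT. The same holds in OE against KO for the giving of an A20 construct, since no KO library with an empty vector is labelled. Neither the labels nor the methods state whether the KO cells were 1 clone or a pool, and no source states that the 3 libraries of a group came from separate cultures, so the p-values measure the spread between libraries, which may be technical. In bulk RNA, fewer cells expressing a gene and less RNA per cell cannot be told apart.

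In the canonical Wnt pathway a complex of the scaffolds APC and axin and the kinases GSK3 and casein kinase 1 marks beta-catenin for ubiquitination and degradation. A Wnt ligand bound to a Frizzled receptor and its LRP coreceptor inactivates the complex through Dishevelled, and beta-catenin then enters the nucleus and activates target genes with TCF/LEF factors. Several targets are themselves inhibitors of the pathway, and the pathway sustains stem cells in the intestinal crypt and is activated by mutation in most colorectal cancers. HCT116 is known to carry a heterozygous in-frame deletion of the serine 45 codon of CTNNB1, a residue phosphorylated by casein kinase 1, while its APC is intact. The reference sequence around the phosphorylation sites is shown to place that residue; the deposited values are gene totals and hold no base calls. In the lines below the capitals mark the codons of serine 33, serine 37, threonine 41 and serine 45, and the stretch covers codons 29 to 49, in exon 4 of the 16 exons of the GENCODE transcript, at chr3:41224597-41224659 on the plus strand of GRCh38.
CTNNB1 codons 29 to 49: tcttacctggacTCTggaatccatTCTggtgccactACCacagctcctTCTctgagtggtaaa

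TCF/LEF factors bind a short motif, written here as CTTTGAA or CTTTGAT on either strand. RefSeq promoter windows of 300 bases, 250 of them before the gene start (GRCh38.p14), were at hand for 30 of the 45 members. Of all 35116 windows, 6.86% held the motif and 9 windows held 3 or more matches. Only SP5 and DKK1 among the 30 members had a match, and the SP5 window was 1 of the 9 with at least 3. The 2 genes changed in opposite directions below, so their matched stretches are shown with the motifs in capitals. The SP5 stretch lay at chr2:170715169-170715279 and the DKK1 stretch at chr10:52314166-52314212, both on the plus strand, in the gene's own direction. Distances are counted from the RefSeq start of each window, which is not the same base as the GENCODE gene start given further below.
SP5, 168 to 58 bases before the start: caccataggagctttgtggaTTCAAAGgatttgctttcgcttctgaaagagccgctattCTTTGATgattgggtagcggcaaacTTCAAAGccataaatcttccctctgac
DKK1, 115 to 69 bases before the start: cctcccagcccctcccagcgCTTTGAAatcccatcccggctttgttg
A match is a description of the letters and was not tested as a binding site. Windows of AXIN2, BTRC, BCL9L, LRP6, FZD3, FZD6, FZD7, LGR5, ZNRF3, NKD1, NOTUM, DKK4, ASCL2, MYC and CCND1 were not used here.

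The libraries held 23406222 to 24963691 reads assigned to genes, and values are FPKM, read pairs scaled to gene length and to a library size. That size was not the total of assigned reads, since the ratio of this total to the implied size ran from 0.95 to 1.07. TNFAIP3 checked the labels. It stood at 0.869, 0.800 and 0.736 FPKM in WT, 1.93, 2.16 and 1.04 in the libraries labelled KO and 58.7, 66.5 and 56.5 in OE. Its mRNA was thus not lower in the libraries labelled KO but higher than in WT (log2 fold change 0.95, adjusted p = 0.0182), and 35.5 times as high again in OE. Gene totals do not show whether the coding sequence was cut, so every KO direction below is that of libraries labelled KO. The colon epithelial markers EPCAM (130 FPKM in WT), KRT8, KRT18, KRT19 and CDX2 (5.73) were present, VIL1 was at or near 0, and of the fibroblast, leukocyte and endothelial markers COL1A1 alone exceeded 1 FPKM (5.32, 13.3 and 11.7 in WT, KO and OE). The summed epithelial markers ran from 1166 to 1605 FPKM in WT, 1882 to 2482 in KO and 1887 to 2472 in OE, and the part of this in the Wnt results was not tested.

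WT 1 and KO 3 stood apart from the other libraries by base composition. The median deviation from the mean of all libraries (log2) in the GC-richest genes minus that in the GC-poorest, each taken as the outer 20% of genes, was -0.86 in WT 1 and 0.58 in KO 3, against -0.17 to 0.26 in the other 7 libraries. Among the 41 members tested, WT 1 was the lowest of the 3 WT libraries for 27 and KO 3 the lowest of the KO libraries for 27. The difference of WT 1 from WT 2 and WT 3 ran from 0.51 for LGR4 to -1.02 for SP5 on the log2(FPKM + 0.1) scale and fell with the GC content of the member (Spearman's rho -0.88 over 41 genes of the same libraries, a description). Counts are therefore also given below without WT 1 and KO 3 and with a correction for GC content, with the calls of members that these gained or lost.

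**Figure D1:**
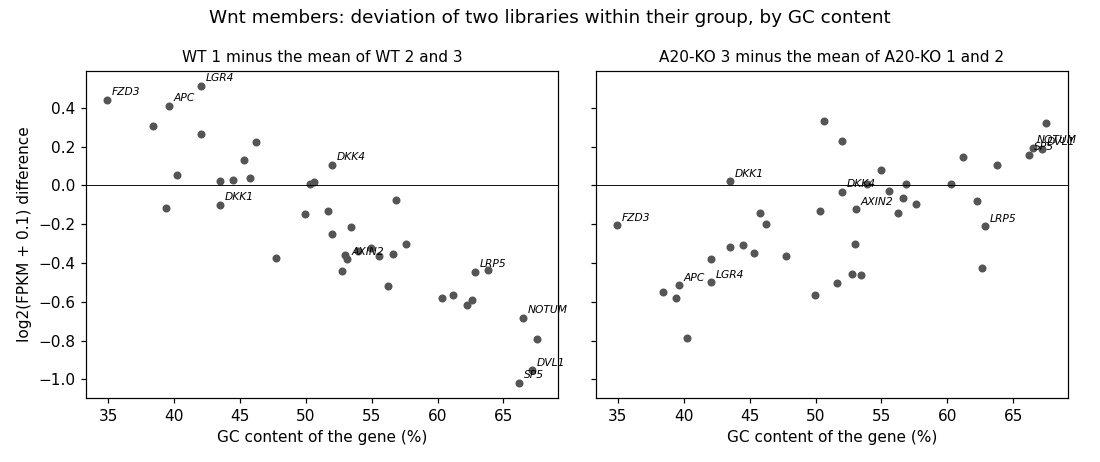
Difference of WT 1 from the mean of WT 2 and WT 3 (left) and of KO 3 from the mean of KO 1 and KO 2 (right), on the log2(FPKM + 0.1) scale, against the GC content of the gene in percent; each dot is 1 of the 41 Wnt members tested. GC-rich members such as SP5, DVL1 and NOTUM lie below 0 in WT 1 and above 0 in KO 3, and APC and FZD3 lie the other way.

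The 3 groups were compared with limma on log2(FPKM + 0.1), over the 21636 genes with a mean of at least 0.1 FPKM. A gene passed at a Benjamini-Hochberg adjusted p below 0.05 and was past the fold threshold if its log2 fold change also exceeded 1 in size. Such fold changes understate those of low genes, and with 3 libraries against 3 an exact permutation test cannot go below p = 0.1, the value it gave for every passing member, each of which had groups that did not overlap. The 3 comparisons share libraries and are not independent of each other. LEF1, LGR5, ASCL2 and APCDD1 were too low to be tested.

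Feedback inhibitors held the largest changes, and they went in opposite directions: AXIN2 and DKK4 fell and DKK1 rose at each step from WT to KO to OE, whereas NOTUM rose in KO and was at a like level in OE. In KO against WT, 8 of the 41 tested members were higher and 4 lower, against 11.3% and 11.0% of all genes tested. Past the fold threshold were NOTUM and DKK1, higher, and AXIN2, lower (all genes, 4.91% and 2.08%). In OE against KO 1 member was higher and 5 lower (all genes, 4.43% and 4.54%), with none higher and DKK4 and SP5 lower past the fold threshold (all genes, 1.56% and 0.832%). In OE against WT 7 were higher and 5 lower (all genes, 15.7% and 15.4%), with NOTUM and DKK1 higher and AXIN2, DKK4 and SP5 lower past the fold threshold (all genes, 7.68% and 4.21%). The median log2 fold change of the members was 0.02, -0.02 and 0.01 in the 3 comparisons, against -0.01, 0.01 and 0.03 over all genes tested. The members' medians stood close to 0, and 23 of the 41 passed in no comparison.
Shares over all genes were taken in the fit above only. Counts under other settings, here and below, therefore have no share of their own beside them, and a shift common to all genes would not show. Without WT 1 and KO 3 the counts were 8 higher and 3 lower in KO against WT, 2 and 6 in OE against KO, and 8 and 10 in OE against WT. In KO against WT MYC and TCF7L2 were gained and CCND1, DKK4 and TCF7L1 lost. In OE against KO CCND1, LRP5 and ZNRF3 were gained and GSK3A lost (adjusted p = 0.0658). In OE against WT MYC, CTNNB1, LRP5, DVL3, BCL9L, TLE3 and FZD4 were gained and EPHB3 lost (adjusted p = 0.0964). With the GC correction the counts were 8 higher and 7 lower in KO against WT, 3 and 5 in OE against KO, and 11 and 7 in OE against WT. That correction gained MYC, TCF7L2, TLE1, BCL9L, SP5 and NKD1 and lost CTNNB1, LRP5 and TCF7L1 in KO against WT. It gained CCND1 and TLE1 in OE against KO, and MYC, DVL3, GSK3B, TCF7L1, EPHB2 and FZD4 in OE against WT, and lost no call in either. The KO against WT count of 12 dropped to 6 without WT 2 or without KO 2 and to 7 without KO 1, and the OE against KO count of 6 dropped to 3 without OE 1 or without OE 2. Scaling by median of ratios gave 11 higher and 5 lower in OE against WT and 2 and 5 in OE against KO, and scaling by total reads gave 5 and 7 in OE against WT.

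**Figure D2:**
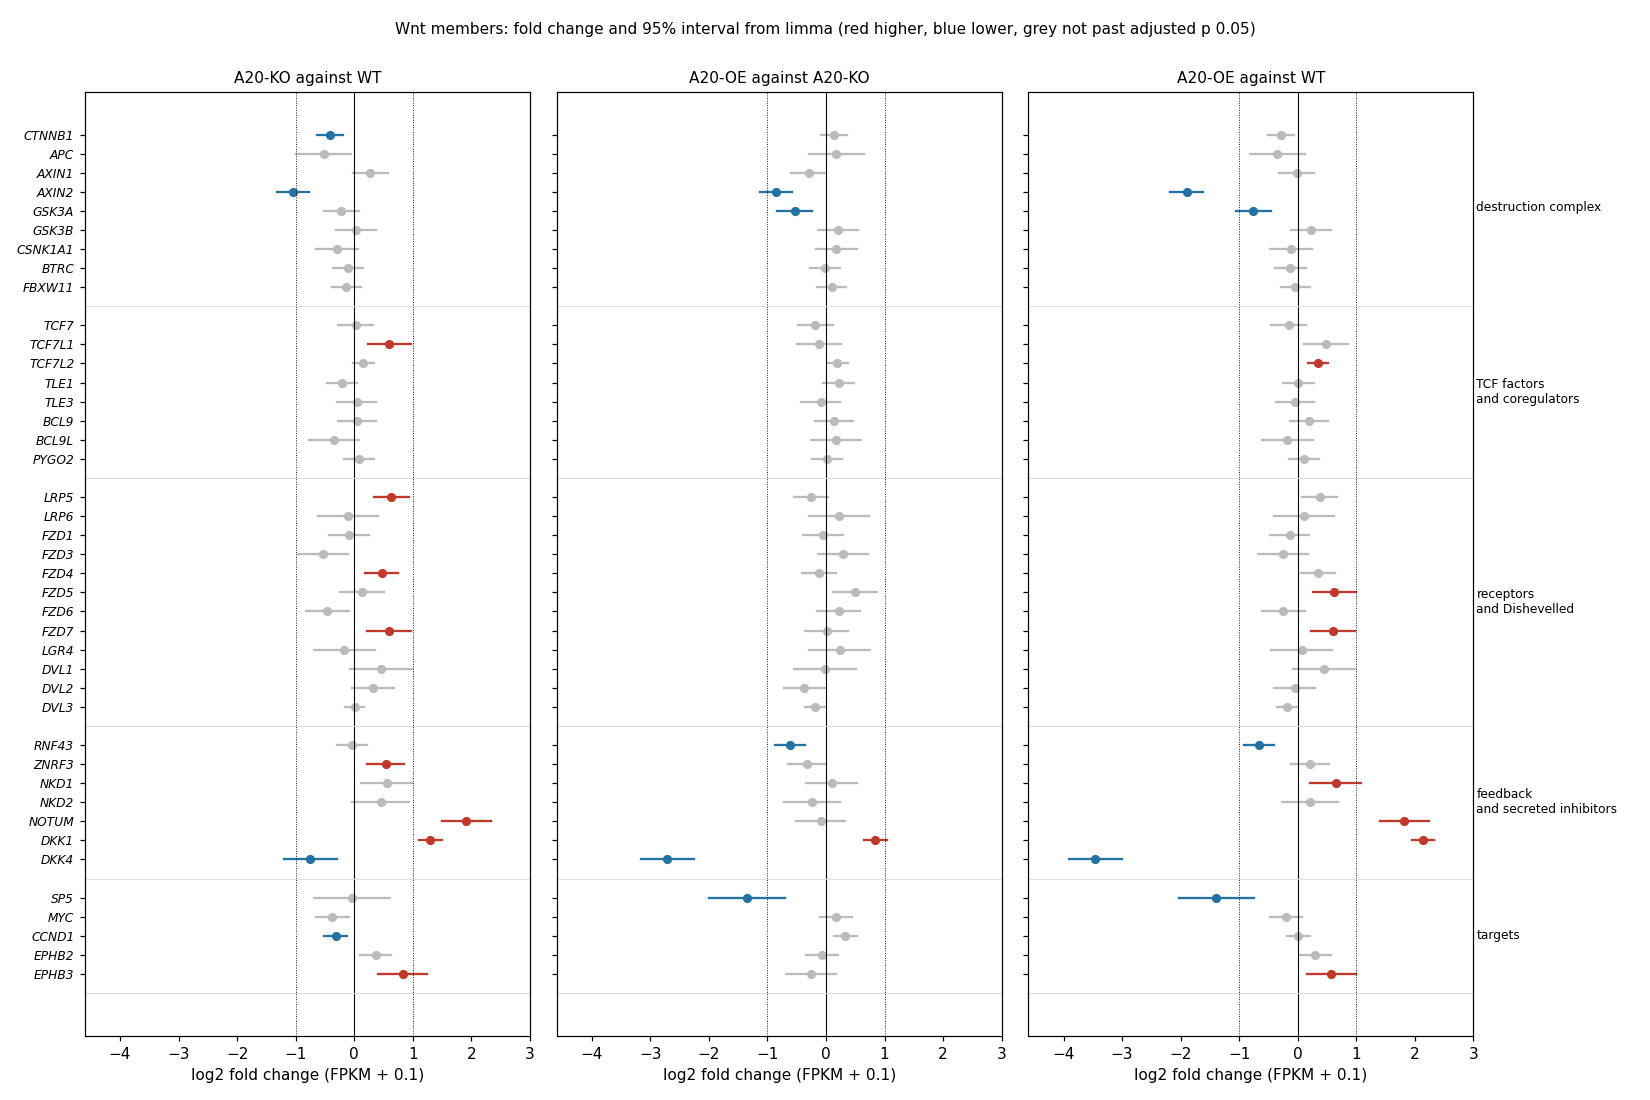
Log2 fold change of FPKM + 0.1 (dot) with its 95% interval from limma (line) for the 41 tested members in the 3 comparisons, grouped by role; red passed higher, blue passed lower, grey did not pass, and dotted lines mark a log2 fold change of 1 and -1. Most members lie within the dotted lines, and AXIN2, DKK4, SP5, DKK1 and NOTUM reach beyond them.

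AXIN2 encodes the scaffold of the destruction complex that the pathway itself induces, and it is widely used as a readout of beta-catenin and TCF activity. The gene (ENSG00000168646) lies on chromosome 17 at 65528563 to 65561647, minus strand, in GRCh38. AXIN2 stood at 9.80, 13.0 and 12.6 FPKM in WT, 5.72, 5.85 and 5.30 in KO and 2.86, 3.19 and 3.15 in OE. Every KO library was below every WT library and every OE library below every KO library. The means were 11.8 ± 1.7, 5.63 ± 0.29 and 3.07 ± 0.18 FPKM (SD, n = 3), and the log2 fold changes were -1.04 (SE 0.12, adjusted p = 0.000765) for KO against WT, -0.85 (adjusted p = 0.0062) for OE against KO and -1.90 (adjusted p = 1.65e-05) for OE against WT. AXIN2 passed in all 3 comparisons under each of the 22 alternative settings. AXIN1, the constitutive paralog, stood at 5.40 ± 0.92, 6.50 ± 0.33 and 5.29 ± 0.32 FPKM and did not pass in any comparison. Within each library AXIN2 made up 67.5% to 69.2% of the axin FPKM in WT, 43.7% to 48.7% in KO and 35.8% to 38.6% in OE. This share compares genes inside a library, and the 3 WT libraries had like shares, WT 1 (69.2%) included. AXIN2 shares 25.2% of its exonic bases with AC004805.1 on the same strand, whose reads cannot be told apart from it.

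**Figure D3:**
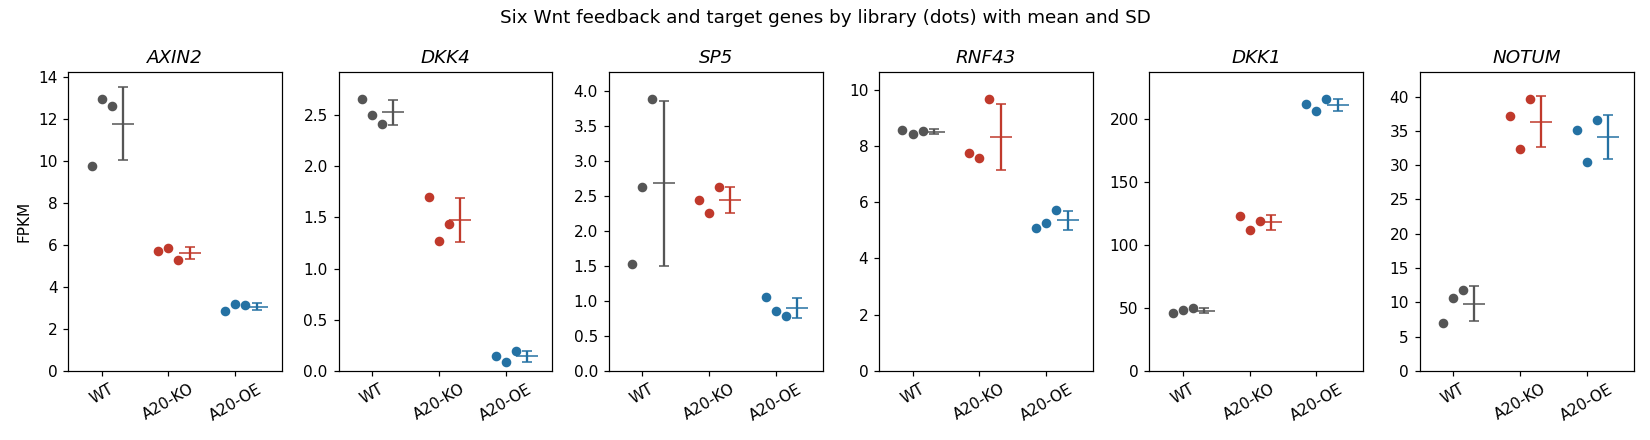
FPKM of AXIN2, DKK4, SP5, RNF43, DKK1 and NOTUM in each library (dots) with the group mean and SD (bars, n = 3); every axis starts at 0. AXIN2 and DKK4 step down and DKK1 steps up across WT, KO and OE, NOTUM is high in KO and OE, and SP5 and RNF43 are low in OE.

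Of the other 8 destruction complex genes, CTNNB1 fell in KO against WT, GSK3A fell in OE against both groups, and 6 did not pass in any comparison. CTNNB1, beta-catenin itself, stood at 33.8, 32.6 and 34.1 FPKM in WT, 27.3, 26.7 and 21.6 in KO and 27.4, 27.7 and 27.2 in OE. It fell in KO against WT by 0.42 on the log2 scale (adjusted p = 0.0172), and the difference of OE from WT was -0.29 (adjusted p = 0.057). KO 3, one of the libraries that stood apart, was its lowest value. Without WT 1 and KO 3 the KO change was -0.30 (adjusted p = 0.0136), and with the GC correction it was -0.26 (adjusted p = 0.0526). APC, the tumor suppressor scaffold, stood at 4.31, 3.62 and 2.86 FPKM in WT, 2.61, 2.92 and 1.90 in KO and 2.74, 3.30 and 2.34 in OE, and its 3 groups overlapped one another. It did not pass in any comparison, the closest being KO against WT at -0.52 (adjusted p = 0.105). GSK3A, the less studied of the GSK3 kinases, fell in OE, with means of 20.4 ± 3.1, 17.3 ± 1.7 and 12.0 ± 1.3 FPKM. Its log2 fold change was -0.76 against WT (adjusted p = 0.00251) and -0.53 against KO (adjusted p = 0.0413), and the second missed the threshold without WT 2, any KO library or any OE library (adjusted p 0.0563 to 0.147) and without WT 1 and KO 3 together (adjusted p = 0.0658). The GSK3A call against KO stood in 12 of the 22 alternatives. GSK3B stood at 10.8 ± 1.3, 11.1 ± 2.0 and 12.7 ± 1.5 FPKM and did not pass. GSK3A made up 59.6% to 71.3% of the GSK3 FPKM in WT, 54.7% to 67.6% in KO and 44.1% to 54.6% in OE, so that GSK3B was the more abundant transcript in OE 1 and OE 2 only. CSNK1A1, the casein kinase, and the ubiquitin ligase adaptors BTRC and FBXW11 did not pass in any comparison, with log2 fold changes from -0.30 to 0.18. GSK3A shares 11.6% of its exonic bases with AC006486.1 and CSNK1A1 37.4% with AC021078.1, both on the same strand.

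**Figure D4:**
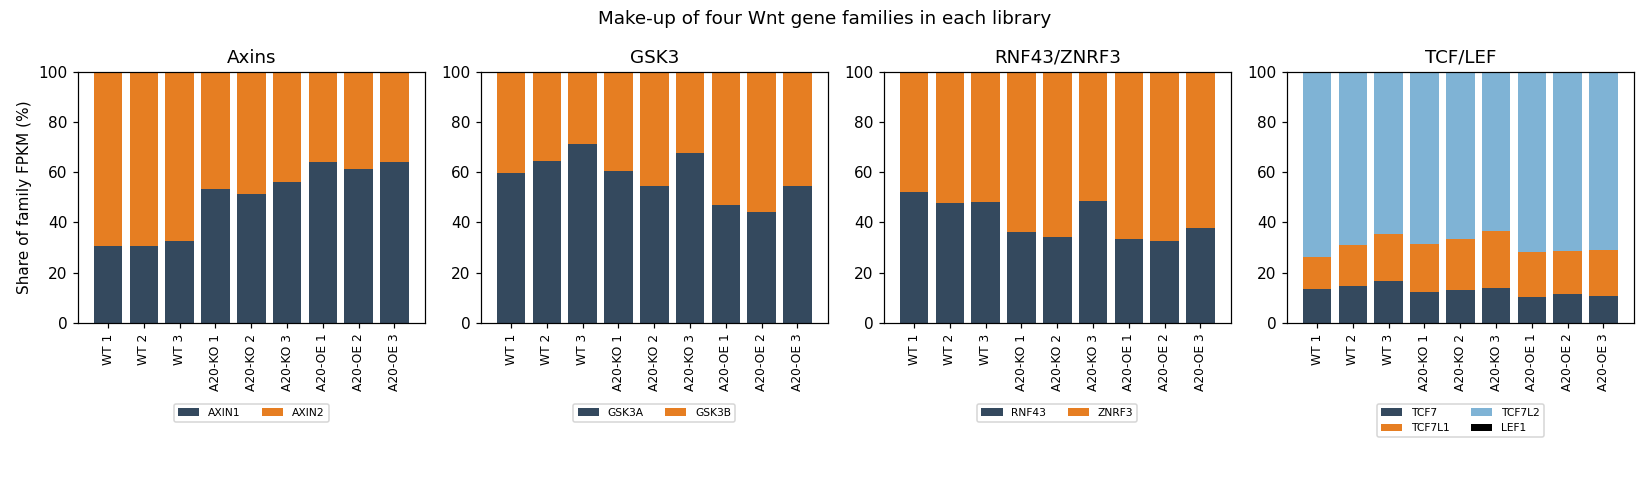
Share of the family FPKM in percent, stacked to 100, for the axins, the GSK3 kinases, RNF43 and ZNRF3, and the TCF/LEF factors; each bar is 1 library. The AXIN2 share shrinks from WT to KO to OE, the GSK3A share is smallest in OE, and TCF7L2 is the largest TCF/LEF share in all 9 libraries, with LEF1 too small to see.

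DKK4 and DKK1 encode secreted Dickkopf proteins, which bind LRP5 and LRP6 and keep Wnt ligands from engaging them. Their transcripts went opposite ways. DKK4 (ENSG00000104371, chromosome 8) had 59, 56 and 54 reads in WT, 37, 28 and 30 in KO and 3, 2 and 4 in OE, or 2.53 ± 0.12, 1.47 ± 0.22 and 0.143 ± 0.052 FPKM. Each step was a fall in which the groups did not overlap. The limma log2 fold change was -0.75 (adjusted p = 0.0272) for KO against WT, -2.71 (adjusted p = 0.000401) for OE against KO and -3.46 (adjusted p = 1.12e-05) for OE against WT. From the summed reads, 9 in OE against 95 in KO, the level in KO was 10.4 times that in OE, with an exact 95% counting interval of 5.26 to 23.4, and the level in WT was 17.9 times that in OE, with an interval of 9.19 to 39.7. These intervals cover the counting error of the summed reads only, and not the spread between libraries. Any PCR copies of a molecule counted as separate reads would make them too narrow. The 2 comparisons with OE passed in all 22 alternatives, whereas the KO change missed the threshold without any 1 of the WT libraries, KO 2 or KO 3 (adjusted p 0.0524 to 0.0853) and without WT 1 and KO 3 together (adjusted p = 0.13). The KO change of DKK4 passed in 14 of the 22 alternatives. DKK1 (ENSG00000107984) lies on chromosome 10 at 52314296 to 52318042, plus strand. It stood at 45.7, 48.2 and 49.6 FPKM in WT, 123, 112 and 119 in KO and 212, 206 and 216 in OE. The 3 groups were far apart relative to their SDs of 2.0, 5.7 and 4.7 FPKM, and DKK1 was the member with the smallest adjusted p in OE against WT. The log2 fold change was 1.30 (adjusted p = 6.77e-05) for KO against WT, 0.84 (adjusted p = 0.0015) for OE against KO and 2.14 (adjusted p = 2.06e-06) for OE against WT, and all 3 passed in all 22 alternatives. DKK4 went from 5.03% of the Dickkopf FPKM in WT to 1.23% in KO and 0.0672% in OE. The DKK1 gene overlaps PRKG1-AS1 on the opposite strand over 9.61% of its exonic bases, and the strandedness of the libraries is not given in the sources used here.

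NOTUM, a secreted carboxylesterase that removes the lipid from Wnt ligands, is another target that feeds back on the pathway. The gene (ENSG00000185269) lies on chromosome 17 at 81952507 to 81961840, minus strand. NOTUM stood at 6.94, 10.6 and 11.8 FPKM in WT, 37.2, 32.3 and 39.6 in KO and 35.2, 30.5 and 36.6 in OE. Both altered groups lay above WT without overlap, and they overlapped each other. The log2 fold change was 1.91 (SE 0.19, adjusted p = 0.000332) for KO against WT and 1.82 (adjusted p = 0.00015) for OE against WT, both passing in all 22 alternatives, and -0.09 (95% interval -0.51 to 0.33, adjusted p = 0.803) for OE against KO. NOTUM is 66.5% GC, among the highest of the members, and WT 1 was its lowest library. Without WT 1 and KO 3 the KO change was 1.62 (adjusted p = 0.00132), and with the GC correction 1.46 (adjusted p = 5.97e-06).

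RNF43 and ZNRF3 are transmembrane ubiquitin ligases that remove Frizzled receptors from the cell surface. RNF43 (ENSG00000108375), on chromosome 17 at 58352500 to 58417595, stood at 8.57, 8.42 and 8.53 FPKM in WT, 7.74, 7.57 and 9.67 in KO and 5.08, 5.25 and 5.73 in OE. OE lay below both other groups, while KO overlapped WT. RNF43 fell in OE by 0.62 on the log2 scale against KO (adjusted p = 0.0138) and by 0.66 against WT (adjusted p = 0.00217). The change against KO missed the threshold without OE 1 (adjusted p = 0.0691) or OE 2 (adjusted p = 0.0604). Because 59.5% of its exonic bases overlap AC004687.2 and SUPT4H1 on the same strand and 20.3% overlap TSPOAP1-AS1 on the other, how its reads were counted is uncertain. ZNRF3 had means of 8.76 ± 0.75, 12.8 ± 2.3 and 10.1 ± 0.74 FPKM and rose in KO against WT (log2 fold change 0.53, adjusted p = 0.0259). That call stood in 16 of the 22 alternatives and was lost without WT 1, WT 2, KO 1 or KO 2 (adjusted p 0.0573 to 0.093), among others. RNF43 thus went from 49.3% ± 2.4 of the pair's FPKM in WT to 39.6% ± 7.8 in KO and 34.6% ± 2.9 in OE, the KO spread coming from KO 3 at 48.6%. NKD1 and NKD2, which bind Dishevelled, were measured at 1.13 and 10.4 FPKM in WT. NKD1 rose in OE against WT (1.84 against 1.13 FPKM, log2 fold change 0.65, adjusted p = 0.0321), a call lost without any WT library, OE 1 or OE 2 (adjusted p 0.0645 to 0.114), and NKD2 did not pass. The NKD1 call stood in 15 of the 22 alternatives. APCDD1, an inhibitor of LRP and Frizzled, had no read in any library.

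SP5, a transcription factor that is a direct target of beta-catenin and TCF and represses other targets, fell in OE. The gene (ENSG00000204335) lies on chromosome 2 at 170715351 to 170718078, plus strand, downstream of the 3 motif matches shown above. SP5 stood at 1.53, 2.62 and 3.88 FPKM in WT, 2.44, 2.25 and 2.62 in KO and 1.06, 0.861 and 0.782 in OE, resting on 37 to 51 reads in each OE library and 78 to 200 in the others. OE lay below both groups, and the KO values fell inside the wide WT range. Against WT its log2 fold change was -1.39 (adjusted p = 0.00577), passing in all 22 alternatives, and against KO -1.35 (SE 0.28, adjusted p = 0.0239). The call against KO missed the threshold without any 1 of the KO or OE libraries (adjusted p 0.0551 to 0.098). Without WT 1 and KO 3 the changes were -1.73 against WT (adjusted p = 0.00161) and -1.30 against KO (adjusted p = 0.0165). The difference of KO from WT was -0.04 in the fit of all libraries (adjusted p = 0.944), and -0.50 with the GC correction (adjusted p = 0.0487).

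None of the other targets tested among the members fell at both steps, from WT to KO and from KO to OE, as AXIN2 did. MYC, the proto-oncogene, stood at 117, 140 and 156 FPKM in WT, 107, 104 and 106 in KO and 117, 111 and 131 in OE. KO was below WT in every library, with a log2 difference of -0.37 that missed the threshold (adjusted p = 0.0566), and OE overlapped WT. Without WT 1 and KO 3 MYC was lower than WT by 0.49 in KO and by 0.31 in OE, and both passed (adjusted p = 0.0244 and 0.047). CCND1, encoding cyclin D1 and the most abundant member in WT, stood at 164, 158 and 168 FPKM in WT, 139, 130 and 123 in KO and 164, 164 and 165 in OE. It shares 10.3% of its exonic bases with LTO1 on the opposite strand. CCND1 fell in KO against WT by 0.32 (adjusted p = 0.032), whereas OE against KO was 0.33 (adjusted p = 0.0521) and OE against WT was 0.01 (95% interval -0.19 to 0.21). It was the member whose OE level stood closest to WT after a KO change that passed, yet that KO call was lost without WT 2, WT 3, any KO library or OE 1 (adjusted p 0.0535 to 0.0758) and without WT 1 and KO 3 together (adjusted p = 0.0538). The CCND1 call in KO stood in 12 of the 22 alternatives. EPHB2 and EPHB3 encode the ephrin receptors that position cells along the crypt. EPHB3 rose in KO against WT (4.37 ± 1.3 to 7.61 ± 0.27 FPKM, log2 fold change 0.83, adjusted p = 0.013) and stood at 6.35 ± 0.37 in OE (0.57 against WT, adjusted p = 0.0435). The OE call stood in 8 of the 22 alternatives. Among others it was lost without WT 1, WT 2, any KO library or any OE library (adjusted p 0.0598 to 0.13) and without WT 1 and KO 3 together. EPHB2 had means of 4.71, 6.06 and 5.77 FPKM, with KO against WT at 0.37 (adjusted p = 0.0544).

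The crypt stem cell genes were at or near 0. LGR5, the R-spondin receptor that marks crypt base stem cells, had 3, 2 and 0 reads in WT, 2, 2 and 0 in KO and 1, 2 and 1 in OE. ASCL2, a stem cell transcription factor, had 0, 2 and 0 reads in WT, 1, 0 and 1 in KO and 4, 4 and 9 in OE, or 17 reads in OE against 2 in each other group. The ratio of OE to WT from these reads was 8.94, with an exact 95% counting interval of 2.12 to 79.7. With no filter on low values ASCL2 passed in OE against WT (adjusted p = 0.0307) and not in OE against KO (adjusted p = 0.0836), at levels no higher than 0.211 FPKM. LEF1, the TCF/LEF factor often switched on in colorectal cancer, had 0 reads in every WT library, 1, 0 and 0 in KO and 2, 2 and 1 in OE. No difference in LGR5 or LEF1 was detectable at this depth. LGR4, the related receptor, was by contrast measured at 2.42 ± 0.60, 2.12 ± 0.42 and 2.51 ± 0.51 FPKM and did not pass.

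TCF7L2 was the main TCF factor of these cells. It stood at 24.6, 23.9 and 24.1 FPKM in WT, 27.5, 28.3 and 25.3 in KO and 31.2, 29.8 and 31.4 in OE, so that OE lay above KO and KO above WT in every library. It rose in OE against WT by a log2 fold change of 0.35 (SE 0.08, adjusted p = 0.00932), which passed in all 22 alternatives, and the steps of 0.16 (adjusted p = 0.194) and 0.19 (adjusted p = 0.168) did not pass. TCF7L2 made up 63.6% to 73.9% of the TCF/LEF FPKM in all 9 libraries. TCF7L1, mostly a repressor, rose in KO against WT (5.59 ± 1.4 to 8.38 ± 0.65 FPKM, log2 fold change 0.60, adjusted p = 0.0305), a call that stood in 10 of the 22 alternatives. It was lost without WT 2, any KO library, OE 1 or OE 2 (adjusted p 0.0502 to 0.0933), without WT 1 and KO 3 together (0.0889) and with the GC correction (0.0704). TCF7 stood at 5.28, 5.32 and 4.67 FPKM. TCF7, the Groucho-type corepressors TLE1 and TLE3, and the coactivators BCL9, BCL9L and PYGO2, which link beta-catenin to transcription, did not pass in any comparison, with log2 fold changes from -0.34 to 0.22. BCL9L shares 38.8% of its exonic bases with genes on the opposite strand.

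Receptors were higher or did not pass. LRP5, a Wnt coreceptor, rose in KO against WT (17.9 ± 3.1 to 27.5 ± 2.4 FPKM, log2 fold change 0.63, adjusted p = 0.00932) and stood at 23.0 ± 0.36 in OE. LRP5 is 62.8% GC, and with the GC correction the change was 0.20 (adjusted p = 0.257), although without WT 1 and KO 3 it was 0.55 (adjusted p = 0.00331). Its paralog LRP6 stood at 4.65, 4.43 and 5.07 FPKM and did not pass. Of the 6 Frizzled members, FZD4 rose in KO against WT (1.59 to 2.24 FPKM, 0.47, adjusted p = 0.0295), FZD7 rose in KO and in OE against WT (7.60, 11.5 and 11.5 FPKM, 0.60 and 0.61, adjusted p = 0.0309 and 0.0216), and FZD5 rose in OE against WT (3.77 to 5.86 FPKM, 0.62, adjusted p = 0.018). Each of these calls was lost without some single library: FZD4 without WT 2, WT 3, KO 1, KO 2 or OE 1 (adjusted p 0.0529 to 0.107), FZD7 in KO without WT 1, WT 2, KO 1, KO 2 or any OE library (0.0505 to 0.11), FZD7 in OE without WT 1, WT 2 or any OE library (0.0533 to 0.0716), and FZD5 without OE 1 or OE 2 (0.0625 and 0.0648). Of the 22 alternatives the FZD4 call stood in 15, that of FZD7 in 12 for KO and 17 for OE, and that of FZD5 in 20. FZD4 also shares 18.9% of its exonic bases with PRSS23 on the opposite strand. FZD6, the most abundant Frizzled in WT at 16.1 ± 2.2 FPKM, and FZD3 and FZD1 did not pass. FZD6 and FZD3 are GC-poor, at 38.4% and 34.9%, and their differences of KO from WT were -0.46 (adjusted p = 0.0716) and -0.54 (adjusted p = 0.0698). DVL1, DVL2 and DVL3, the Dishevelled adaptors, did not pass, and DVL1 stood at 32.6 FPKM in WT 1 but 60.5 and 65.9 in WT 2 and WT 3 and 62.5 to 76.1 in KO and OE.

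Other genes of the pathway, on lists of their own, give the setting of these changes. These lists too were chosen with earlier results of these data known, so their counts are descriptions. Of 19 Wnt ligands, the secreted signals themselves, 14 were tested. In KO against WT 7 were higher and 1 lower (all genes, 11.3% and 11.0%), in OE against KO 4 were higher and none lower (all genes, 4.43% and 4.54%), and in OE against WT 9 were higher and 2 lower (all genes, 15.7% and 15.4%). Leaving out WT 1 and KO 3 gave 6 higher and 1 lower, 4 and 0, and 8 and 2, and with the GC correction 5 and 2, 5 and 0, and 8 and 2. Median-of-ratios scaling gave 9 higher and 1 lower in OE against WT. The summed level was 38.6 to 45.2 FPKM in WT, 52.0 to 55.5 in KO and 75.2 to 81.6 in OE, with no overlap between groups. WNT16, the most abundant ligand and named after its values were seen, stood at 17.1 ± 0.86, 17.6 ± 3.7 and 33.2 ± 2.7 FPKM, so that most of the step in the sum from KO to OE was in this gene. It rose in OE against KO (log2 fold change 0.93, adjusted p = 0.00937), a call lost without OE 1 (adjusted p = 0.0531).
WNT7A stood at 0.123, 0.175 and 0.227 FPKM in WT, 0.629, 0.631 and 0.656 in KO and 1.14, 1.13 and 1.35 in OE, a rise of 2.26 on the log2 scale in OE against WT (adjusted p = 8.93e-05). WNT7B had means of 5.18 ± 1.1, 8.93 ± 0.51 and 14.1 ± 0.32 FPKM and WNT9A of 4.03, 5.79 and 8.77. All 3 genes passed in all 3 comparisons, but not in every alternative. The OE against KO call of WNT7A was lost without WT 2, any KO library or any OE library (adjusted p 0.0661 to 0.121), that of WNT7B without the same libraries (0.0549 to 0.112), and that of WNT9A without KO 2, KO 3 or any OE library (0.0685 to 0.115). The KO against WT call of WNT9A was lost without KO 1 (adjusted p = 0.0872) and with the GC correction (0.338). WNT11 (1.64, 3.02 and 3.94 FPKM) and WNT4 (0.266, 1.08 and 1.04) rose in KO and in OE against WT.
Of 6 genes for Wnt secretion and R-spondins 3 were tested. In KO against WT 1 was higher and none lower (all genes, 11.3% and 11.0%). In OE against KO 1 was higher and 1 lower (all genes, 4.43% and 4.54%), and in OE against WT 2 were higher and 1 lower (all genes, 15.7% and 15.4%). PORCN, the acyltransferase that attaches the lipid Wnt ligands need, rose at each step (3.48 ± 0.26, 5.83 ± 0.67 and 9.44 ± 0.52 FPKM, adjusted p = 0.0028, 0.0102 and 4.79e-05), its OE against KO call being lost without OE 2 (adjusted p = 0.0502). WLS, which carries Wnt ligands to the cell surface and was named after its values were seen, stood at 24.1 ± 0.92, 24.6 ± 1.2 and 17.6 ± 0.76 FPKM and fell in OE, by 0.48 against KO (adjusted p = 0.0104) and 0.45 against WT (adjusted p = 0.00283). The first of these calls was lost without KO 1 (adjusted p = 0.052) and without OE 1 (0.054). RSPO4, an R-spondin, rose in OE against WT (0.532 to 1.21 FPKM, adjusted p = 0.00444).

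**Figure D5:**
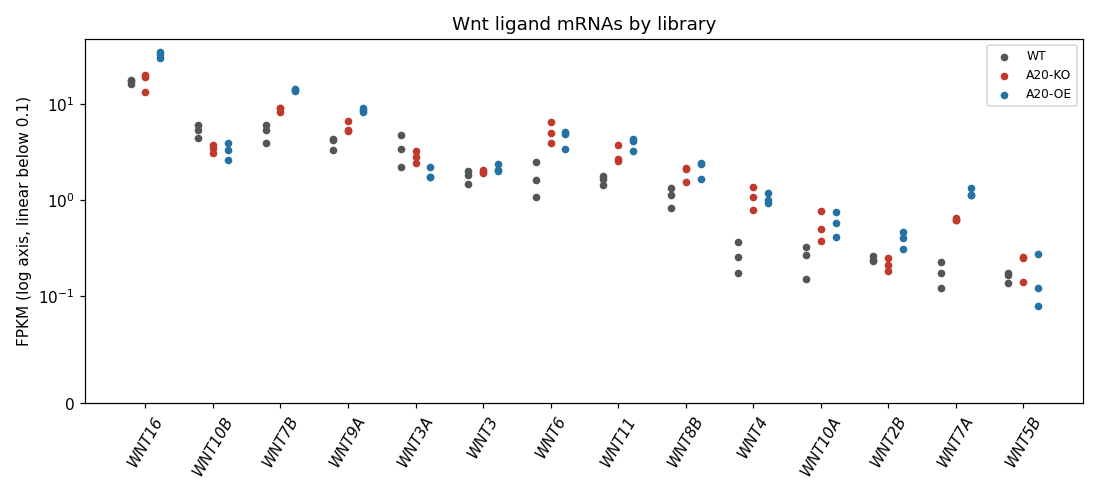
FPKM of the 14 Wnt ligand genes tested, 1 dot a library, ordered by their mean in WT, on a log axis that is linear below 0.1. WNT7A, WNT7B and WNT9A step upward from WT to KO to OE. WNT10B and WNT3A have lower means in OE than in WT, and the WNT3A dots of these groups overlap.

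Among other extracellular inhibitors 3 of 12 were tested. FRZB (0.203, 0.927 and 0.704 FPKM), a Frizzled-related decoy, and KREMEN1 (10.5, 22.5 and 18.3 FPKM), a Dickkopf receptor, rose in KO and in OE against WT (all genes, 11.3% and 15.7% higher). Of 8 other Frizzled and coreceptor genes tested, FZD8 fell in KO against WT from 0.345 to 0.0206 FPKM (adjusted p = 0.0106), and 2 were higher (all genes, 11.3% higher and 11.0% lower). With the GC correction 1 was higher. The FZD8 values rested on 21, 42 and 41 reads in WT, 5, 0 and 1 in KO and 8, 2 and 3 in OE. FZD8 was low in OE too, at 0.0458 FPKM (adjusted p = 0.015 against WT), a call lost without WT 2 (adjusted p = 0.0517).
The counts of the next lists are read against shares over all genes of 11.3% higher and 11.0% lower in KO against WT and 15.7% and 15.4% in OE against WT. Of 17 other destruction complex regulators none was higher and 2 were lower in each of these comparisons, none past the fold threshold. With the GC correction 1 was higher and 1 lower in KO and 1 higher and 4 lower in OE, and with total-reads scaling 5 were lower in OE. Of 14 other TCF coregulators tested, 2 were higher and 1 lower in KO against WT and 2 higher and 2 lower in OE against WT, and with the GC correction 3 and 3, and 2 and 4. With median-of-ratios scaling they were 2 higher and 1 lower in OE against WT. Of 9 planar polarity genes, which serve the branch of Frizzled signaling that does not use beta-catenin, 2 were higher and none lower in KO and 3 higher and none lower in OE against WT. With the GC correction these were 0 higher and 1 lower in KO and 2 and 1 in OE, and without WT 1 and KO 3 they were 1 and 0, and 3 and 1. VANGL2, a core polarity protein, rose past the fold threshold in OE against WT (0.606 to 1.61 FPKM, adjusted p = 0.00355). Of the 5 cadherin-catenin partners, which hold beta-catenin at cell junctions, 4 were higher in OE against WT and none was lower, and 3 were higher without WT 1 and KO 3 or with total-reads scaling.

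Of 17 other genes listed as intestinal Wnt targets and tested, 5 were higher and 3 lower in KO against WT (all genes, 11.3% and 11.0%), 1 higher and 3 lower in OE against KO (all genes, 4.43% and 4.54%), and 5 higher and 5 lower in OE against WT (all genes, 15.7% and 15.4%). Median-of-ratios scaling gave 3 higher and 3 lower in OE against KO. Leaving out WT 1 and KO 3 gave 4 and 2, 3 and 4, and 6 and 5, and with the GC correction 6 and 3, 3 and 4, and 6 and 5. Like AXIN2 and SP5, SOX9, a crypt transcription factor, was low in OE, at 20.5 ± 0.62 FPKM (SD, n = 3) against 47.6 to 58.1 in WT and 39.2 to 53.2 in KO (log2 fold change -1.19 against KO, adjusted p = 0.00183). ID2, an inhibitor of bHLH factors, went the other way and rose at each step (37.5, 67.0 and 136 FPKM, adjusted p = 0.00053, 0.000811 and 5.46e-06). CEMIP, a hyaluronan-binding protein, fell in KO (12.6 to 3.78 FPKM, log2 fold change -1.72, adjusted p = 0.00012) and stood at 4.41 in OE. BMP4 rose in KO from 120 to 252 FPKM (adjusted p = 0.00019) and fell in OE against KO to 194 (adjusted p = 0.0371), a call lost without WT 2, any KO library or any OE library (adjusted p 0.0622 to 0.141). PPARD, a nuclear receptor, rose from 17.6 to 30.4 and 41.3 FPKM, passing against WT in both (adjusted p = 0.00273 and 0.000149). Listed targets therefore moved in both directions in every comparison, as did the members.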

How the data were processed

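The authors deposited 1 table of FPKM (read pairs scaled to gene length and to a library size) for 58735 genes in 9 libraries of 150 bp paired-end reads. The submitters' processing notes name HISAT2 2.0.5 and featureCounts 1.5.0-p3. The genome build is not given in the sources used here, but the gene coordinates were the same as in GENCODE 29 (GRCh38). Multiplied by gene length, the deposited FPKM gave whole reads per library (within 0.05, for genes under 1000 reads), and all 9 sample columns were used. WT, KO and OE follow the labels; OE is the knockout with A20 restored in the study's methods.

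Genes with a mean of at least 0.1 FPKM were tested on log2(FPKM + 0.1) with limma 3.58.1 (R 4.3.3), all 3 groups in 1 fit and the variance trend on, and Benjamini-Hochberg adjustment over all genes tested; the script was tested on simulated data. The study tested counts, which are not the deposited unit. Counting intervals are exact and 95%. The members and lists were chosen with earlier results of these data known. All 45 members are named; values in each library are given for members past the fold threshold (log2 fold change above 1 in size) and for CTNNB1, APC, AXIN2, TCF7L2, LEF1, LGR5, ASCL2, MYC, CCND1 and RNF43, and for TNFAIP3. Up to 5 genes of each other list, those past that threshold with the smallest adjusted p, are named, by group means or library values.

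The 22 alternatives were other pseudocounts (1 and 0.01), no filter or a mean of at least 1 FPKM, median-of-ratios or total-reads scaling, only the 2 groups compared, the replicate number as a block, no variance trend, limma-voom on the recovered reads, a correction for gene GC content in 50 bins with and without the block, each library left out, and, chosen after seeing the data, WT 1 and KO 3 left out together. No scaling moved the median of all genes by 0.1 (log2).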

Additional observations from a re-analysis of the deposited data

How the results depend on the processing

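Over 22 alternatives, the 30 passing calls of single members gave 660 values, of which 555 passed in the same direction, 105 missed the threshold in the same direction and 0 changed sign. The count of members passing in KO against WT was 12, and 5 in a fit of only the 2 groups compared; leaving out replicates gave 6 to 11. In OE against KO it was 6, and 3 to 9 with replicates left out. In OE against WT it was 12, and 20 with the GC correction together with the replicate block; leaving out replicates gave 8 to 18. Past the fold threshold, OE against KO had 2 members, 1 at a pseudocount of 1 and 1 to 2 with replicates left out; KO against WT had 3, and 2 to 3; OE against WT had 5 throughout the replicates left out. For genes named from the other lists, only the 41 calls that passed in the main fit were followed. Of their 890 values 836 passed and 890 kept their direction. Comparisons of these genes that did not pass were left out, so these counts describe calls already chosen as passing. The shares of all genes passing under these settings were not taken, and the cause of these shifts was not tested.

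Deviations of libraries with the same number correlated at -0.03 to 0.12, so the numbers were not taken to pair the samples; the replicate block gave 17, 7 and 12 passing members in the 3 comparisons. Levels below 0.1 FPKM rested on a few reads, and at this depth LGR5, LEF1 and APCDD1 could not be compared.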

Other observations

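The mitochondrial share of reads ran from 7.52% to 10.1% in WT, 9.18% to 11.9% in KO and 12.0% to 14.0% in OE, and its part in the Wnt values was not tested.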
